A study of Mus musculus with 6 samples.

Results

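The subcortical maternal complex is represented here by 6 mouse genes, Nlrp5, Tle6, Ooep, Khdc3, Padi6 and Zbed3, picked by name from the 25239 gene symbols of a raw count table. All 6 were in the table and all 6 were among the 14114 genes that passed the filter on low counts. Fully grown oocytes gave 6 libraries, made from poly(A) RNA by Smart-seq2, which copies whole transcripts from scarce input. Of these, 3 came from wild-type (WT) female mice and 3 from females with a conditional knockout (cKO) of Nat10 made with Gdf9-cre, a Cre recombinase expressed in oocytes from early follicle stages. All oocytes were taken 36 to 48 h after PMSG, a gonadotropin that stimulates follicle growth. The labels do not give the age of the females, the exons removed, whether WT females carry floxed alleles or Cre, or how many oocytes and animals went into each library. The p-values therefore cover only library-to-library spread, and some of it may be technical.

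The complex is a large protein assembly beneath the plasma membrane of the mammalian oocyte and of the outer cells of the early embryo. Its transcripts are made and stored as the oocyte grows, and its proteins persist after fertilization. In mice, NLRP5, TLE6 and OOEP form the core of the complex, KHDC3 binds it, and PADI6 and ZBED3 are found with it. The complex is closely tied to the cytoplasmic lattices, fibrous structures that store proteins in the egg. Embryos of mouse females without Nlrp5, Tle6, Ooep or Padi6 arrest at the first cleavage stages. NAT10, the enzyme deleted here, acetylates cytidines in RNA, and the question addressed is what its removal does to oocyte transcripts.

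The start regions of the 3 members that differed between the genotypes at the test's threshold are shown to give the sequence context of these loci. They come from the RefSeq table for GRCm38.p6, the same assembly as the mm10 build of the counts, and each runs from 250 bases before to 50 bases after the transcription start that matches the outer end of the gene in the count table. Letters are 5′ to 3′ on the strand of the gene. Capitals mark matches to CANNTG, the E-box bound by FIGLA with its partner TCF3 in mouse zona gene promoters, and to TAATTG or TAATTA, the elements bound by the oocyte factor NOBOX. Both strands were searched, so a match may appear as its reverse complement (CAATTA for TAATTG), and no E-box match overlapped a NOBOX match.

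Nlrp5, plus strand, chr7:23385639-23385938: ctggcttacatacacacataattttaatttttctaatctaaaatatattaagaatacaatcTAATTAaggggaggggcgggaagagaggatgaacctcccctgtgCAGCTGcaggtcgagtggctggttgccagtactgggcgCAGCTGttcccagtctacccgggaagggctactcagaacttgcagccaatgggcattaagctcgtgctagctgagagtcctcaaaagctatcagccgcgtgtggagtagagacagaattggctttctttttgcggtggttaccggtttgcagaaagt

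Padi6, minus strand, chr4:140742594-140742893: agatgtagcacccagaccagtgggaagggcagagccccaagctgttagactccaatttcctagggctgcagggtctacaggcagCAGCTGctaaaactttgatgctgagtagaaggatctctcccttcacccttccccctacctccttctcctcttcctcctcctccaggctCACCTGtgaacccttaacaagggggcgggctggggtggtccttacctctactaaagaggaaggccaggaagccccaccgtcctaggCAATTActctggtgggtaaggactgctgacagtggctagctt

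Zbed3, plus strand, chr13:95323355-95323654: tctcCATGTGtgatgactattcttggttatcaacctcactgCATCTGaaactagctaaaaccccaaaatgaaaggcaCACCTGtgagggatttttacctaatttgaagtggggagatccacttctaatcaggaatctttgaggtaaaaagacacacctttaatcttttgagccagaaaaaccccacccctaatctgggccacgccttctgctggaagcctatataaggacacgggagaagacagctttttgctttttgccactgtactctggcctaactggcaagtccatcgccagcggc

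An E-box was present in the start region of all 6 members, and in 72.3% of the 32851 windows of that length in the table, so its presence is common. TAATTG was found for 2 members, Ooep and Padi6, and in 8% of windows. TAATTA was found for Nlrp5 alone among the members and in 5.29% of windows. Nlrp5, Tle6 and Zbed3 have further annotated starts, and the counts do not say which start was used.

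Before any comparison, Nat10 was read in every library to check the labels. It stood at 48.0, 45.0 and 64.5 CPM (counts scaled to a common library size with TMM factors) in WT replicates 1 to 3 and at 7.18, 7.64 and 7.98 CPM in cKO replicates 1 to 3, so all 3 libraries labelled cKO were low (log2 fold change -2.79 ± 0.19, SE; edgeR adjusted p = 1.95e-06). Library totals ran from 20167665 to 29407659 counts, and a count of 0 allowed a level of up to 3 counts, at most 0.153 CPM, for counting error only. Oocyte markers were abundant, with 10 markers summing to between 23216 and 28728 CPM. Of these, 3 were called higher in cKO (Zp2, Zp3 and Dazl) and 1 lower (Mos). A list of 14 markers covered granulosa and cumulus cells, which surround the oocyte. It summed to 99.2 to 104 CPM in WT and 81.9 to 84.8 CPM in cKO. Of its 9 tested markers, 0 were called higher and 2 lower. Amh and Foxl2 reached at most 0.76 and 0.29 CPM. Cyp19a1 lay between 32.5 and 39.7 CPM, Nr5a2 between 16.3 and 26.2 CPM, and Cyp11a1 between 13.7 and 19.7 CPM. Inha lay between 8.26 and 13.4 CPM in WT and 3.64 and 4.50 CPM in cKO. Fshr went the other way, between 0.78 and 1.98 CPM in WT and 2.34 and 2.44 CPM in cKO, and was not called. The part of such cells in the results was not tested. Across the transcriptome 40.2% of tested genes differed at an adjusted p under 0.05, 20.1% higher and 20.1% lower in cKO.

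The estimated differences of the members between the genotypes lay in both directions and were modest. Of the 6, Padi6 and Zbed3 rose in cKO and Nlrp5 fell, while Tle6, Ooep and Khdc3 did not pass the test. That is 3 of 6, read against 40.2% of all tested genes and 46.3% of the 2348 genes with a mean of at least 100 CPM, where all members lie. The CPM of the groups did not overlap for 5 of the 6 members, and for 52.0% of all tested genes. The median log2 fold change was 0.11 over the members and 0.01 over all genes. Estimates were below 0 for the 3 core genes and above 0 for the other 3. In bulk RNA, fewer cells of a type and less RNA per cell cannot be told apart.

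**Figure D1:**
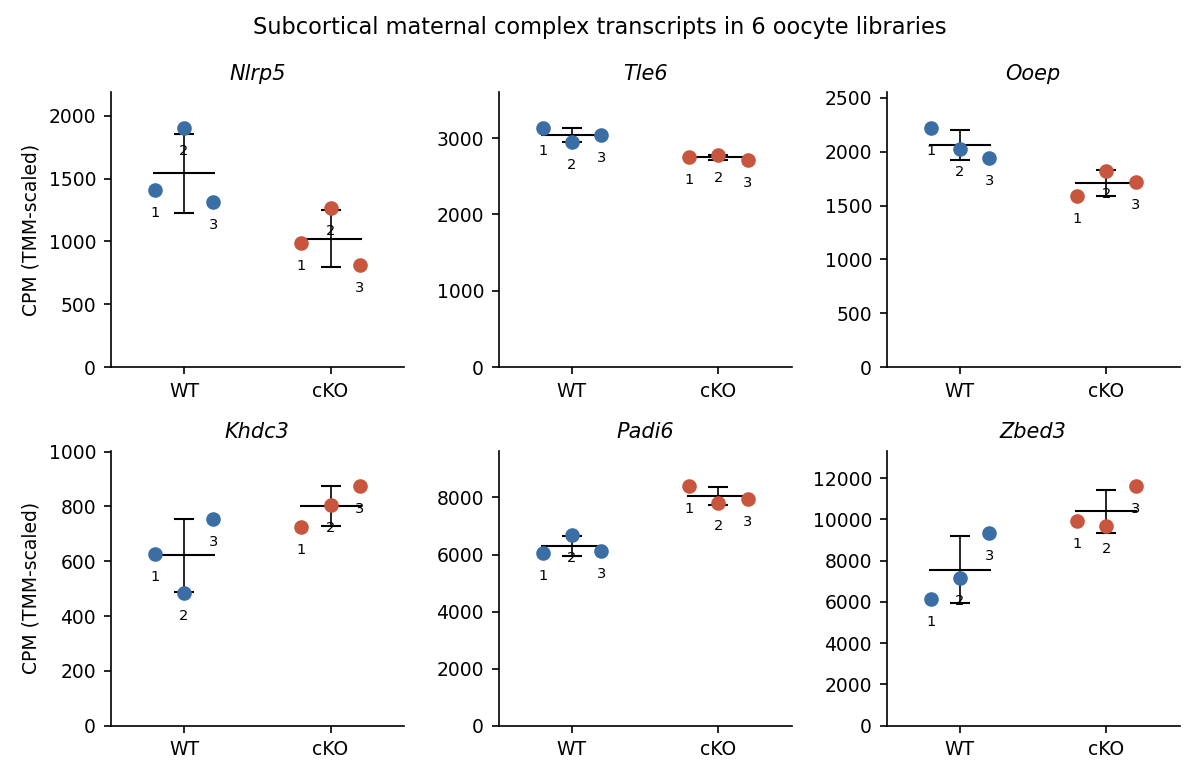
CPM of each member in each library (y axis, from 0), with the library's replicate number under its point, WT in blue and cKO in red, black line and bars the mean ± SD (n = 3). Nlrp5 lies between 1312 and 1903 CPM in WT and between 810 and 1264 CPM in cKO, and Padi6 between 6057 and 6684 CPM in WT and between 7806 and 8389 CPM in cKO.

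Nlrp5 encodes MATER, the NLR-family protein of the core, needed in mouse oocytes for the complex to assemble. The gene lies on the plus strand of chromosome 7, from 23385889 to 23441923 in mm10, with 3542 counted exonic bases. Its level was 1407, 1903 and 1312 CPM in the WT libraries and 989, 1264 and 810 CPM in the cKO libraries. Each cKO library lay below each WT library, though the highest cKO library, replicate 2, came close to the lowest WT library, replicate 3. The means were 1540 ± 318 and 1021 ± 229 CPM (SD, n = 3), a log2 fold change of -0.59 ± 0.17 (SE), or 66.3% of WT, and edgeR's quasi-likelihood F test gave an adjusted p of 0.0132. The call was lost without WT replicate 2 (-0.40, adjusted p = 0.0789), cKO replicate 1 (-0.57, adjusted p = 0.0536) or cKO replicate 3 (-0.45, adjusted p = 0.0559). NLRP genes have close paralogs, so reads could be shared among them.

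Tle6 encodes a Groucho-family protein that binds NLRP5 and OOEP in the core. The gene spans 81590904 to 81600900 on chromosome 10, minus strand, with 2219 exonic bases. The WT libraries held 3133, 2944 and 3045 CPM and the cKO libraries 2750, 2779 and 2718 CPM. These were the tightest replicates of the 6 genes, with coefficients of variation of 3.12% in WT and 1.11% in cKO, and the groups did not overlap. The log2 fold change was -0.15 ± 0.09 (SE), with a 95% interval from -0.35 to 0.06 and an adjusted p of 0.236, so Tle6 was not called.

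Ooep encodes FLOPED, a small KH-domain protein of the core. It spans 78376903 to 78378588 on chromosome 9, minus strand, with 1207 exonic bases. Levels were 2220, 2023 and 1944 CPM in WT and 1586, 1822 and 1719 CPM in cKO. All cKO libraries were below all WT libraries, and the means were 2063 ± 142 and 1709 ± 118 CPM (SD, n = 3). The log2 fold change of -0.27 ± 0.10 (SE) had a 95% interval from -0.50 to -0.05 and an adjusted p of 0.0524, just outside the threshold over all genes. Limma-voom called it (-0.27, adjusted p = 0.0326), as did edgeR without WT replicate 3 (-0.31, adjusted p = 0.0343).

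Khdc3 encodes FILIA, a KH-domain protein that joins the complex and is linked to genome stability in mouse embryos. It also lies on chromosome 9, on the plus strand from 73102398 to 73104443, with 1686 exonic bases. It had the lowest CPM of the members, with 627, 484 and 753 CPM in WT and 726, 805 and 873 CPM in cKO. The groups overlapped, because WT replicate 3 was above cKO replicate 1. The means of 621 ± 134 and 801 ± 73 CPM (SD, n = 3) gave a log2 fold change of 0.37 ± 0.15 (SE), with a 95% interval from 0.05 to 0.68 and an adjusted p of 0.0621. Without WT replicate 3 the value was 0.53 with an adjusted p of 0.00999, and limma-voom gave 0.39 with an adjusted p of 0.0391.

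Padi6 encodes a peptidylarginine deiminase family protein of the oocyte that is required for cytoplasmic lattices in mice. The gene spans 140727355 to 140742643 on chromosome 4, minus strand, with 2333 exonic bases. The counts per library were 169949, 144881 and 120490 in WT and 251366, 222616 and 221073 in cKO, which correspond to 6057, 6684 and 6129 CPM and to 8389, 7806 and 7951 CPM. Every cKO library was above every WT library. Padi6 rose by 0.36 ± 0.09 (SE) on the log2 scale, or 1.28-fold, with an adjusted p of 0.00854, the smallest of the 6. The call was lost without cKO replicate 1 (0.33, adjusted p = 0.0566).

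Zbed3 encodes a zinc finger protein known from other cells as an Axin-binding activator of Wnt signalling. It lies on the plus strand of chromosome 13, from 95323605 to 95337842, with 2651 exonic bases. It had the highest CPM of the members, with 6158, 7158 and 9328 CPM in WT and 9923, 9687 and 11597 CPM in cKO. The groups did not overlap, but WT replicate 3 lay only a little below cKO replicate 2. The means were 7548 ± 1621 and 10402 ± 1042 CPM (SD, n = 3), and the log2 fold change was 0.46 ± 0.14 (SE), or 1.38-fold, with an adjusted p of 0.0171. The call was lost without WT replicate 1 (0.35, adjusted p = 0.0763), WT replicate 2 (0.44, adjusted p = 0.0541) or cKO replicate 3 (0.38, adjusted p = 0.0713).

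**Figure D2:**
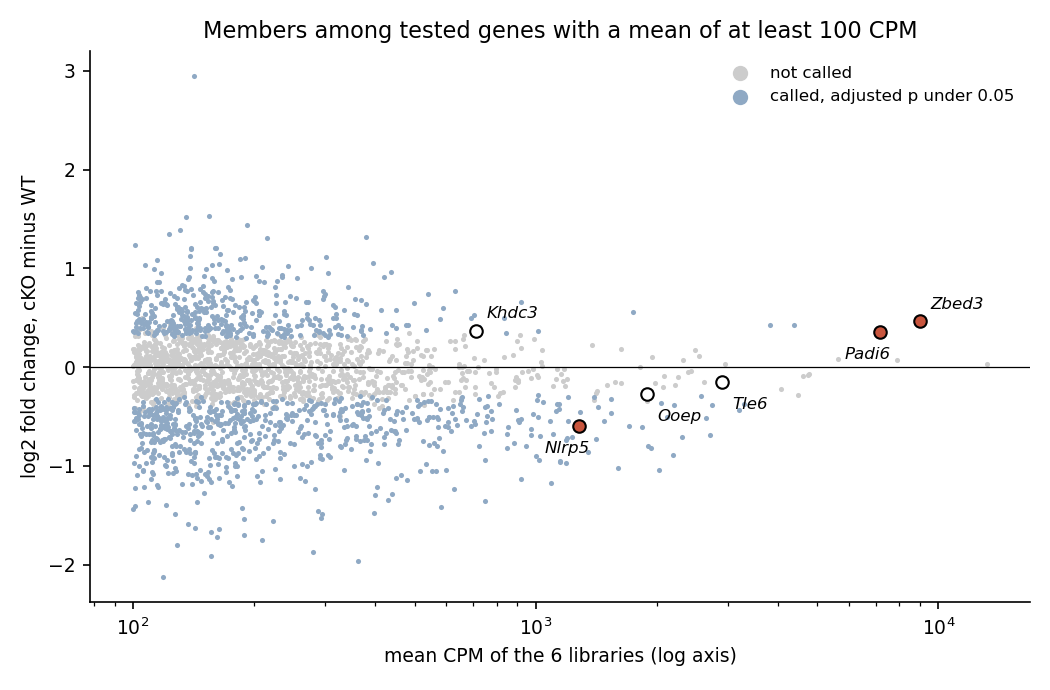
Log2 fold change, cKO minus WT (y axis), against mean CPM on a log axis (x axis) for the tested genes with a mean of at least 100 CPM, with the 6 members circled in black and filled red where called. Zbed3 (0.46) and Padi6 (0.36) lie at the far right among the most abundant transcripts, and Nlrp5 (-0.59) lies below 0.

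The members were also compared under other scalings of the libraries. By library totals alone, where 40.4% of genes were called and the median of all genes was 0.12, Khdc3 was called as well (0.48, adjusted p = 0.0222), giving 4 of 6 members. A deposited table gives the share of reads from ERCC spike-in RNA, and from it the number of endogenous reads per spike-in read was 344, 370 and 288 in the WT libraries and 270, 216 and 214 in the cKO libraries. The means were 334 ± 42 and 233 ± 32 (SD, n = 3), a difference with a two-sided exact permutation p of 0.1, the smallest that 3 against 3 can give. The labels do not say how much spike-in was added per oocyte, and the spike-in share, 0.25% to 0.43% of reads, is given to 0.01% only. Scaling to the spike-in moved the median log2 fold change of all genes to -0.39, and 42.6% of genes were then called. By direction, 34.2% of all genes were called lower on that scale and 8.37% higher. The 3 core genes were called lower, with log2 changes of -1.02 for Nlrp5, -0.55 for Tle6 and -0.69 for Ooep. Khdc3 (-0.022), Padi6 (-0.045) and Zbed3 (0.076) were near 0 and not called. A change of scaling shifts all genes by nearly the same amount. Relative to the shifted median the values therefore had to stay close to the TMM ones, and their likeness is no separate support. They were -0.63, -0.15 and -0.29 for the core genes and 0.37, 0.35 and 0.47 for the others.

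Transcript length and base composition moved with the fold changes across all genes, and the members differ in both. Exonic length ran from 1207 bases for Ooep to 3542 for Nlrp5, and the GC content of the longest coding transcript from 46.3% for Ooep and 47.2% for Nlrp5 to 56.0% for Tle6 and 57.9% for Khdc3. That transcript has 2138 bases for Ooep, against 1207 counted, and 1945 for Zbed3, against 2651 counted. The GC content used for these 2 genes, and so their corrected values, may not be that of the counted exons. At the length and GC content of each member, the trend over all genes stood between -0.11 for Nlrp5 and 0.49 for Khdc3 on the log2 scale, cKO minus WT. That trend was removed from each library and the genes were tested with limma. Of all genes 42.3% were then called, 23.4% lower and 18.9% higher, and the median of all genes was -0.05. The 3 core genes were again called lower, at -0.49 for Nlrp5 (limma adjusted p = 0.0135), -0.51 for Tle6 (adjusted p = 0.000551) and -0.36 for Ooep (adjusted p = 0.00663). Padi6 (0.21, adjusted p = 0.0651) and Zbed3 (0.30, adjusted p = 0.0607) were no longer called, and the estimate for Khdc3 was -0.11 (adjusted p = 0.484).

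**Figure D3:**
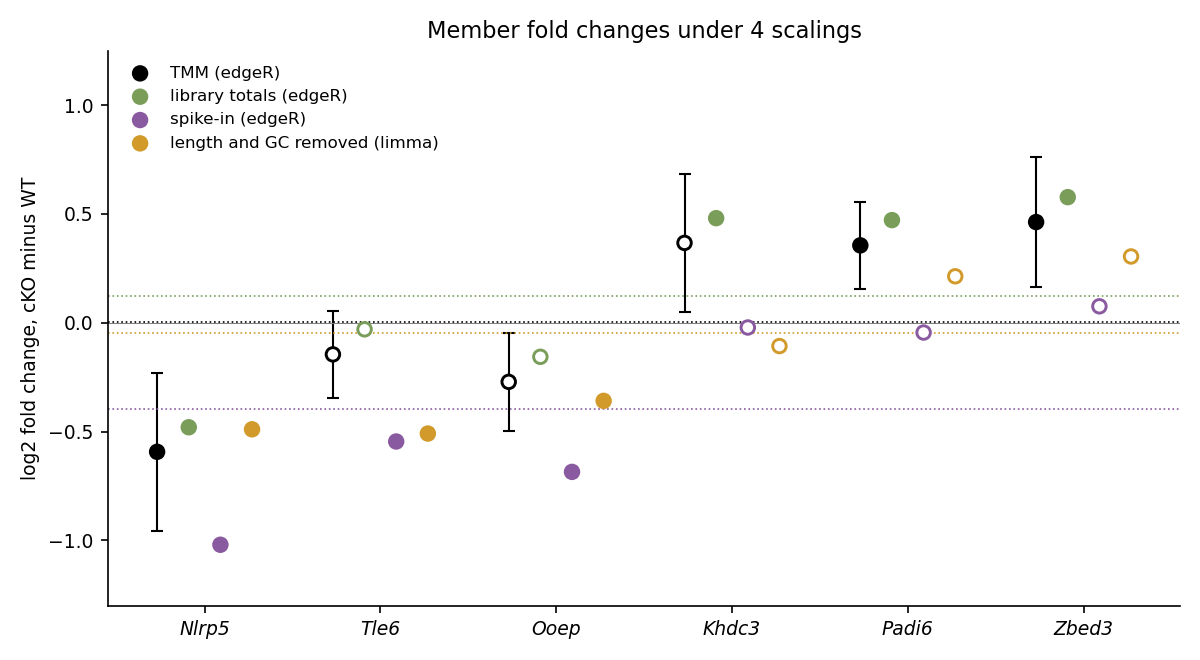
Log2 fold change of each member, cKO minus WT (y axis), under TMM scaling (black, bars the 95% interval), library totals (green), spike-in scaling (purple) and after removal of the length and GC trend (ochre), filled where the adjusted p was under 0.05 and with dotted lines at each setting's median of all genes. Nlrp5 is below 0 and called in all 4 settings, while Tle6 and Ooep are called in 2 of them.

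Levels can be compared between the members only per base of transcript, as RPKM (CPM per kilobase of exon). In WT the order was Zbed3 with 2847 ± 611, Padi6 with 2696 ± 147, Ooep with 1709 ± 118, Tle6 with 1370 ± 43, Nlrp5 with 435 ± 90 and Khdc3 with 368 ± 80 RPKM (SD, n = 3). The libraries of Zbed3 and Padi6 overlapped, as did those of Nlrp5 and Khdc3, so neither pair is ordered beyond its spread. In cKO the order was Zbed3 with 3924 ± 393, Padi6 with 3450 ± 130, Ooep with 1416 ± 98, Tle6 with 1239 ± 14, Khdc3 with 475 ± 44 and Nlrp5 with 288 ± 65 RPKM, and no neighbours overlapped. By RPKM rank among the 14114 tested genes, Zbed3 was between 3rd and 9th in every library and Padi6 between 5th and 8th. Ooep ranked from 20 to 25 and Tle6 from 28 to 40, while Khdc3 ranged from 114 to 273 and Nlrp5 from 119 to 385. The 6 genes together took 1.87%, 2.02% and 2.19% of all counts in the WT libraries and 2.55%, 2.46% and 2.71% in the cKO libraries. Zbed3 alone took 0.59%, 0.68% and 0.91% in WT and 1.04%, 0.99% and 1.23% in cKO. These are shares of library totals, a scale on which the median log2 change of all genes was 0.12. The summed share does not describe the core genes, whose estimates were below 0.

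Ratios between members within a library do not depend on how libraries are scaled. The RPKM ratio of Nlrp5 to Khdc3 was 1.07, 1.87 and 0.829 in WT and 0.649, 0.748 and 0.442 in cKO. That of Ooep to Padi6 was 0.708, 0.585 and 0.613 in WT and 0.365, 0.451 and 0.418 in cKO. The ratio of Tle6 to Ooep, both core genes, was 0.768, 0.791 and 0.852 in WT and 0.943, 0.830 and 0.860 in cKO, and overlapped. In all 9 pairs of a core gene with one of the other 3 the ratio was lower in each cKO library than in each WT library, with changes from -0.50 to -1.08 on the log2 scale, and in none of the 6 remaining pairs were the groups apart. This split into core and other genes was noticed after the values were seen, and the pairs share members. With 9 of 15 pairs apart, the members matched the 60.0% of all gene pairs above 100 CPM whose ratios did not overlap between the genotypes, so the count itself is no result about them. After the length and GC correction 7 of the 9 core ratios remained without overlap, with Nlrp5 to Khdc3 and Nlrp5 to Zbed3 the exceptions, and Khdc3 to Zbed3 was apart among the other 6, against 60.8% of all pairs.

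**Figure D4:**
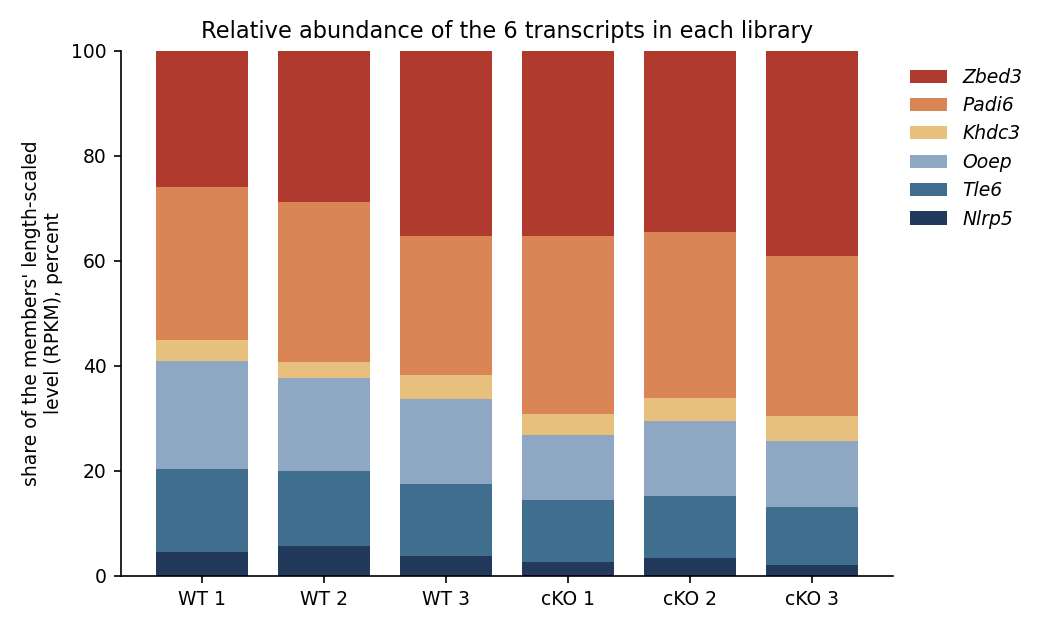
Share of the summed RPKM of the 6 members held by each in each library (y axis, percent, from 0 to 100), WT libraries at left and cKO libraries at right. The Ooep share lies between 16.2% and 20.6% in WT and between 12.4% and 14.2% in cKO, and the Nlrp5 share between 3.72% and 5.72% in WT and between 2.05% and 3.37% in cKO.

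Genes whose proteins are known or candidate partners of the complex in mouse oocytes or cytoplasmic lattices were called lower more often than higher. Most of the lower calls were in the Fbxw gene family, described below. Of 25 partners tested, 10 fell, 2 rose and 13 did not pass, with a median log2 change of -0.27 against 0.01 for all genes. Over all tested genes 20.1% were lower and 20.1% higher. The list was chosen with earlier results of these data known, so its tally is no independent test. Among those that fell, the NLRP genes Nlrp2 went from 617 ± 131 to 243 ± 84 CPM (SD, n = 3) and Nlrp4f from 2140 ± 296 to 1054 ± 243 CPM. The list holds 13 Fbxw genes, of the F-box family of SKP1-based ubiquitin ligase receptors; 8 of them fell, making up 8 of the 10 partners that did, and 5 were not called. Of the 8 that fell, Fbxw19 went from 1114 ± 117 to 654 ± 114 CPM, Fbxw16 from 1196 ± 160 to 746 ± 100 CPM, and Fbxw28 from 1307 ± 329 to 701 ± 145 CPM. The 8 partners named by rule are the called ones with the smallest p, Cfl1 among them. Their adjusted p ran from 0.000319 for Nlrp4f to 0.00186 for Fbxw28 in edgeR's test. Fbxw15 (0.00497), Fbxw20 (0.00868) and Fbxw18 (0.0210) also fell, with larger adjusted p in that test. Fbxw14 and Fbxw22 changed by -0.63 ± 0.12 and -0.74 ± 0.15 (SE) on the log2 scale. Cfl1, the cofilin gene of actin turnover, rose from 715 ± 106 to 1128 ± 98 CPM. Ywhah, a 14-3-3 protein gene outside the naming rule, rose from 40.6 ± 5.2 to 75.6 ± 20.5 CPM. Outside the Fbxw family the called partners were Nlrp2 and Nlrp4f, both lower, and Cfl1 and Ywhah, both higher. Nlrp14 had 4915 ± 922 and 4051 ± 760 CPM (log2 -0.28, adjusted p = 0.168), the SKP1 gene Skp1a 2921 ± 295 and 2993 ± 87 CPM (0.035, adjusted p = 0.815), and Uhrf1, a chromatin protein that is cytoplasmic in oocytes, 713 ± 188 and 619 ± 6 CPM (-0.20, adjusted p = 0.322). Of the 10 that fell, Fbxw18 lost its call without WT replicate 1 (adjusted p = 0.101) or 2 (0.0764) or cKO replicate 1 (0.104) or 3 (0.0786), and Fbxw20 without replicate 1 of WT (0.0549) or cKO (0.0514). With spike-in scaling 15 partners were lower and 0 higher, where 34.2% of all genes were lower and 8.37% higher. With length and GC corrected, 11 were lower and 3 higher, against 23.4% and 18.9% of all genes. NLRP and Fbxw genes have near-identical copies, so their single values are uncertain.

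Transcription factors that drive oocyte genes were called only in the higher direction under TMM scaling. This list too was chosen with earlier results of these data known. Of 10 tested, 5 rose, 0 fell and 5 did not pass, with a median log2 change of 0.46, where 20.1% of all genes were higher and 20.1% lower. Spike-in scaling left 0 higher and 1 lower, where 8.37% of all genes were higher and 34.2% lower, and a median of 0.078. FIGLA and its E-protein partner TCF3 activate oocyte genes through E-boxes. Figla rose from 39.9 ± 4.5 to 58.0 ± 6.1 CPM (SD, n = 3) and Tcf3 from 29.7 ± 7.8 to 51.0 ± 14.0 CPM. The homeobox gene Nobox rose from 887 ± 37 to 1144 ± 125 CPM, the LIM homeobox gene Lhx8 from 336 ± 42 to 440 ± 20 CPM, and Taf4b, a TFIID subunit gene of germ cells, from 22.6 ± 1.7 to 41.2 ± 5.6 CPM. Adjusted p ran from 0.00124 for Taf4b to 0.0190 for Lhx8 in edgeR's test. Taf4b alone of these 5 kept its call when any library was left out; Figla (adjusted p = 0.0600) and Nobox (0.107) lost it without cKO replicate 1, Lhx8 without WT replicate 1 (0.0622) or 2 (0.0783) or cKO replicate 1 (0.0742), and Tcf3 without WT replicate 2 (0.0589) or cKO replicate 3 (0.0754). With length and GC corrected, Lhx8 (0.33), Taf4b (1.10) and Tcf12 (0.84), the last not called before, were higher, against 18.9% of all genes. Figla (0.29, adjusted p = 0.111), Nobox (0.21, adjusted p = 0.129) and Tcf3 (0.25, adjusted p = 0.220) were then not called.

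**Figure D5:**
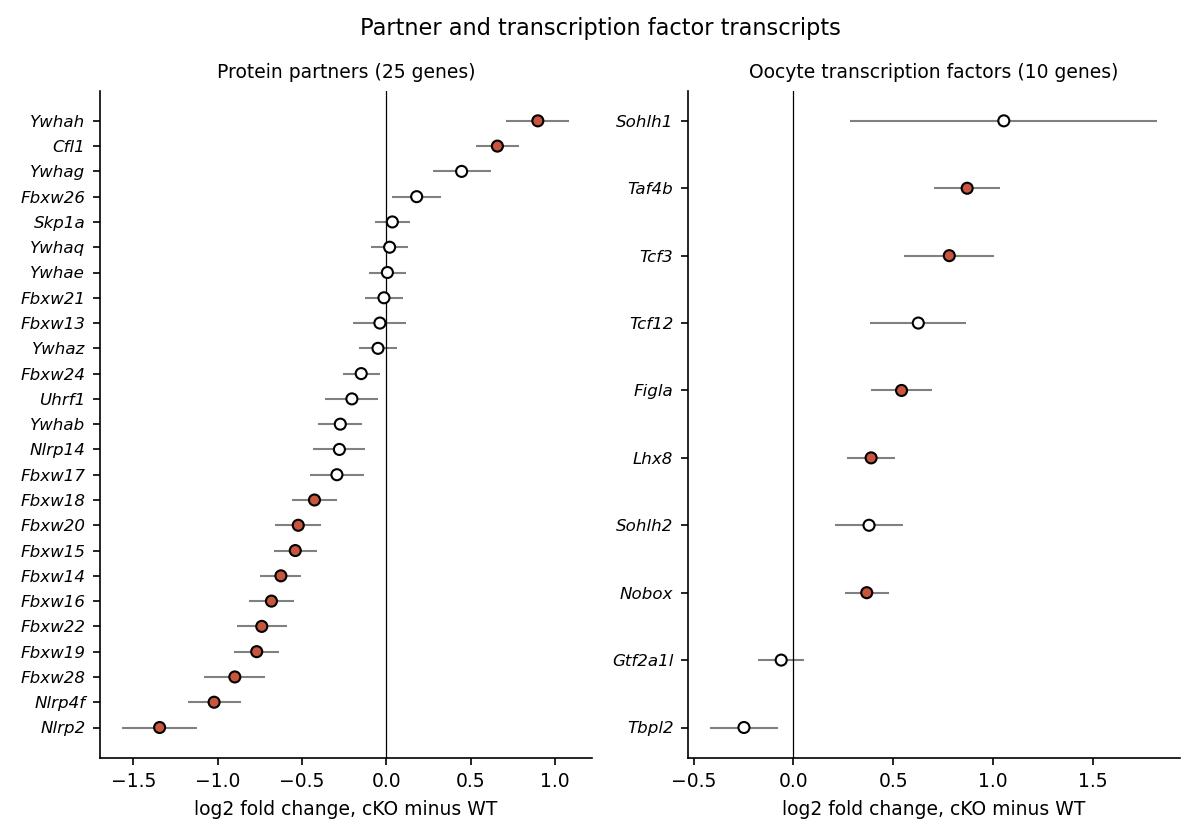
Log2 fold change, cKO minus WT (x axis), with its SE as a bar, for 25 tested partner genes (left) and 10 tested transcription factor genes (right), red where the adjusted p was under 0.05. Nlrp2 (-1.34) and Nlrp4f (-1.02) are lowest among partners, and 5 of the transcription factors are filled red to the right of 0.

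Relatives of the members were measured beside them. Among KH-domain relatives Khdc1b fell from 2489 ± 174 to 1908 ± 218 CPM (SD, n = 3; edgeR adjusted p = 0.0155), while Dppa5a, which lies 8704 bases from Ooep, had 456 ± 46 and 508 ± 30 CPM (adjusted p = 0.302). Khdc1a and Khdc1c were low, at 20.2 and 2.79 CPM in WT, and were not called, although Khdc1a was called lower with spike-in scaling (-0.72). The call of Khdc1b was lost without WT replicate 2 (adjusted p = 0.0690), cKO replicate 1 (0.0509) or cKO replicate 3 (0.0719). The other deiminase genes were low: Padi1 had 3.58 ± 0.78 and 1.79 ± 0.08 CPM, Padi2 2.01 CPM in WT with no call, and Padi4, which lies 2865 bases from Padi6, 7.85 ± 3.16 and 4.98 ± 0.15 CPM (adjusted p = 0.0882). Padi4 was called lower with spike-in scaling (-1.02, edgeR adjusted p = 0.00902) and with length and GC corrected (-0.96, limma adjusted p = 0.00829). Padi1 was called lower (adjusted p = 0.0280), but not without WT replicate 1 (adjusted p = 0.0565), WT replicate 3 (0.0966) or any cKO replicate (0.0550 to 0.0743), and 1200 of its exonic bases are shared with Gm13032.

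Of the 3 tested Groucho relatives of Tle6, 2 rose, where 20.1% of all genes did. Tle4 rose from 16.5 ± 2.4 to 32.2 ± 7.4 CPM and Tle5 from 8.37 ± 2.94 to 16.2 ± 3.4 CPM (SD, n = 3), with edgeR adjusted p of 0.00257 and 0.0116, and neither was called after spike-in scaling (0.60 and 0.57). The Tle5 call was lost without WT replicate 1 (adjusted p = 0.0598) or cKO replicate 3 (0.0510). Tle1, at 9.79 and 13.5 CPM, was not called, although it was called higher with length and GC corrected (0.58, limma adjusted p = 0.0420). Among the ZBED and Axin-Wnt genes, of which 7 were tested, 1 fell and 0 rose, where 40.2% of all genes were called. Apc, a scaffold of the beta-catenin destruction complex, went from 61.8 ± 11.6 down to 29.6 ± 4.5 CPM (log2 -1.06 ± 0.18, SE; edgeR adjusted p = 0.000526). Axin2 (0.40), Gsk3b (0.49), Ctnnb1 (0.23), Axin1 (-0.059), Zbed4 (0.10) and Zbed5 (-0.16) were not called, although Gsk3b (0.77) and Ctnnb1 (0.30) were called higher with length and GC corrected. Zbed5 was called lower with spike-in scaling (-0.60).

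Within 50 kb of a member lie 17 protein genes of the table, of which 14 were tested, 5 called higher and 1 lower. The share called in either direction was close to the 40.2% of all genes. By direction, 20.1% of all genes were higher and 20.1% lower. Rcc2, a mitotic regulator gene that lies 4135 bases from Padi6, rose from 39.5 ± 6.2 to 84.9 ± 24.7 CPM (SD, n = 3; edgeR adjusted p = 0.00108). Rab27a, a membrane traffic GTPase gene 4784 bases from Khdc3, fell from 26.7 ± 2.9 to 14.9 ± 1.9 CPM (edgeR adjusted p = 0.00282). Aggf1, 12841 bases from Zbed3, rose by 1.01 ± 0.20 (SE) on the log2 scale (edgeR adjusted p = 0.00158). Near Tle6, Gna11, a G protein subunit gene, rose from 4.59 ± 1.16 to 21.5 ± 6.9 CPM, and the sirtuin gene Sirt6 from 88.8 ± 11.5 to 120.7 ± 12.9 CPM, a call lost without WT replicate 1 (adjusted p = 0.0656) or 2 (0.0870) or cKO replicate 1 (0.0572) or 3 (0.0754). Sirt6 was not called with spike-in scaling (0.056, adjusted p = 0.861) or with length and GC corrected (-0.012, adjusted p = 0.939). Tle5, given above, lies 24533 bases from Tle6 and was the other neighbour called higher. Nlrp4e, the tested neighbour of Nlrp5, was not called (-0.11, adjusted p = 0.549).

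Likeness to each member was measured as the root mean square difference of log2 CPM, centred on each gene's mean, over the 6 libraries and 7962 genes with at least 10 CPM. Ttc37 (0.034) and Pms2 (0.052) were most like Nlrp5, with Ttc37 at 62.4, 85.0 and 56.6 CPM in WT and 41.7, 55.2 and 33.9 CPM in cKO. H3f3b (0.032) and Brd9 (0.033) were most like Tle6, and Galk2 (0.025) and Hnrnpa2b1 (0.028) most like Ooep. For Khdc3 they were Ctif (0.051) and Ddrgk1 (0.052), for Padi6 Arl4a (0.013) and Lgr6 (0.026), and for Zbed3 Hsf1 and Dcakd (0.050 each). Among the members themselves Tle6 and Ooep were most alike (0.095), followed by Khdc3 and Zbed3 (0.19), and Nlrp5 and Zbed3 least (0.66).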

How the data were processed

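Poly(A) RNA of 3 WT and 3 cKO oocyte libraries was measured by Smart-seq2, which per the labels' protocols uses oligo-dT priming and tagmentation; it carries no molecular identifiers and no strand. The authors deposited raw counts per gene, with exonic lengths. Reads were processed with Trim Galore 0.6.7, STAR 2.7.10a and featureCounts on mm10, per the submitters' processing notes; how multi-mapping reads were handled, and the annotation, were not given in the sources used here. A second deposited table holds the mapped and spike-in shares as fractions of 1 under percent headings; endogenous reads per spike-in read are the mapped less the spike-in share, divided by the spike-in share, both rounded by the authors to 4 decimals.

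Counts were tested with edgeR 4.0.16 (R 4.3.3): filterByExpr (minimum count 10), TMM, a quasi-likelihood F test without a block, two-sided, and Benjamini-Hochberg adjustment over 14114 genes at 0.05. SEs are the log2 fold change divided by the square root of F. Limma 3.58.1, DESeq2 1.42.0 and, for smooth trends on log2 length and GENCODE M21 GC content (97.99% of tested genes), mgcv 1.9.3 served the alternatives. Tests were tried on simulated data in which 200 genes were changed. That is far fewer than the 5674 called here, so the trial does not cover a change of this breadth. Named genes were the members, Nat10, up to 8 called partners and transcription factors with the smallest p, tested relatives and neighbours within 50 kb. Members and lists were chosen with earlier results of these data known.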

Additional observations from a re-analysis of the deposited data

How the results depend on the processing

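The count of called genes stayed within 1.5 times the 5674 of the main analysis under all 17 alternatives run, from 3999 with at least 10 CPM in 3 libraries to 6199 with a replicate block; without 1 library it was 4383 to 5485. Spike-in scaling changed the split of higher and lower calls to 1182 and 4832, and library totals to 3450 and 2253, against 2836 and 2838. None of the alternatives run changed the sign of Nlrp5, Tle6, Ooep or Zbed3. With spike-in scaling, which moved the median of all genes to -0.39, Khdc3 (-0.022, adjusted p = 0.944) and Padi6 (-0.045, adjusted p = 0.886) were slightly below 0 and, relative to that median, at 0.37 and 0.35; Khdc3 was also below 0 (-0.11) after the length and GC correction. Calls lost were Zbed3 with spike-in scaling (0.076) and with length and GC corrected (0.30), and Padi6 with spike-in scaling, after the length correction (0.24) and the length and GC correction (0.21). Calls gained for Khdc3 were with library totals (0.48), limma-voom (0.39), no filter (0.39), the 10 CPM filter (0.44) and limma on uncorrected log2 CPM (0.39), the last chosen after seeing the data. Ooep was called with spike-in scaling (-0.69), limma-voom (-0.27), the length correction (-0.54) and the length and GC correction (-0.36), and Tle6 with spike-in scaling (-0.55), the length correction (-0.28) and the length and GC correction (-0.51). For each of these the cause was not tested.

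Without 1 library, log2 changes ran from -0.75 to -0.40 for Nlrp5, -0.15 to -0.10 for Tle6, -0.31 to -0.20 for Ooep, 0.23 to 0.53 for Khdc3, 0.33 to 0.42 for Padi6 and 0.35 to 0.64 for Zbed3. Same-numbered libraries of the genotypes deviated together weakly, with correlations of -0.02, 0.06 and 0.11. Replicates 2 and 3 matched their own number best and replicate 1 did not, so pairing by number is not settled. With the replicate block Khdc3 (0.39, adjusted p = 0.0113) and Ooep (-0.27, adjusted p = 0.0328) were called, and the calls of the other 4 members were as without it. Their adjusted p in edgeR's test with the block were lower than without it. They were 7.69e-05 for Nlrp5, 0.204 for Tle6, 0.00234 for Padi6 and 0.000244 for Zbed3. Every member had at least 10501 counts in each library, so depth does not limit these values. The edgeR test draws on the spread of other genes as well as on that of the gene itself. For Tle6 the SE was 0.09, while its coefficients of variation were 3.12% in WT and 1.11% in cKO.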

Other observations

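Snora47, a small nucleolar RNA gene within the span of Zbed3 (chromosome 13, 95330611 to 95330736) that shares no counted exonic base with it, was noticed after its values were seen. It had 8.05, 9.96 and 25.3 CPM in the WT libraries and 1.90, 1.26 and 3.45 CPM in the cKO libraries, so the groups did not overlap. Snora47 fell by 2.71 ± 0.45 (SE) on the log2 scale (edgeR adjusted p = 0.000543), in the same libraries in which Zbed3 rose by 0.46. It was also called lower with spike-in scaling (-3.05) and with length and GC corrected (-2.68). The libraries were primed with oligo-dT and carry no strand. Reads at this position therefore cannot be assigned to the small RNA itself or to unspliced Zbed3 RNA, and their source was not tested.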
